A study of Mus musculus with 7 samples.

Results

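The 7 genes described here encode factors that the mouse oocyte secretes: the growth factors Gdf9, Bmp15, Bmp6 and Fgf8, and the oocyte secreted protein genes Oosp1, Oosp2 and Oosp3. They were chosen by name, and a gene was represented by its transcript on its own strand with the highest mean over the libraries. By this rule 6 of the 7 genes had a transcript among the 33437 in the table, and 5 of these 6 reached at least 1 RPM (reads scaled to the mapped reads of the library) in at least 3 libraries, the level required for a test. The sixth, Fgf8, was below that level. Bmp6 had no transcript by the rule, because the only one that carries its name lies on the opposite strand. A transcript on the Bmp6 strand, listed as Gm47990, covers the gene almost whole (overlap over union of the spans 0.97), and its values are given as Bmp6 by span, a match made after its values had been seen.

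RNA was sequenced from single germinal vesicle (GV) oocytes, the grown oocytes still in meiotic arrest, of C57BL6 females at the age of 21 days. In both groups the females were Setd1b floxed/floxed. The 4 Setd1b cKO oocytes came from Gdf9-Cre positive females and the 3 Setd1b WT oocytes from Gdf9-Cre negative females. The recombinase is driven by the promoter of Gdf9, 1 of the genes described here, so the cKO females alone carried a transgene with that promoter. The methods of the study also allow control females with 1 floxed allele and Gdf9-Cre, whereas the labels give all WT females as Cre negative. The labels name no female for any oocyte, so p-values measure the spread between oocytes.

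GDF9 and BMP15 are ligands of the TGF-beta family that growing oocytes release to the surrounding granulosa cells, where receptors of the BMP and activin types and SMAD proteins carry the signal. They sustain follicle growth, cumulus expansion and fertility. BMP6 is a further ligand of the family made by oocytes, and FGF8 acts with BMP15 on the metabolism of cumulus cells. The OOSP proteins are small secreted proteins of the oocyte related to the placental protein PLAC1, and their genes lie side by side on chromosome 19.

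Libraries held 8582493 to 12972366 mapped reads. The share of mapped reads outside the transcripts was 14.6% ± 1.30 (SD, n = 4) in cKO and 9.73% ± 0.165 (SD, n = 3) in WT oocytes, without overlap. Setd1b RNA, matched by span, ran from 2.68 to 16.7 RPM in cKO and from 8.61 to 17.7 RPM in WT oocytes (exact permutation test, two-sided p = 0.4), so its level gave no check of the genotype. The 9 oocyte markers in the table were all detected in every library and summed to between 20965 and 23740 RPM in cKO and between 24920 and 27453 RPM in WT oocytes, and 1 of the 9, Mos, passed the threshold, lower in cKO oocytes. All 12 granulosa cell markers were in the table, and none of the 6 tested passed. They summed to 76.9 to 90.2 RPM in cKO and 49.9 to 70.7 RPM in WT oocytes, and 5 of the 12, among them Foxl2 and Amh, stayed under 1 RPM in every library. The most abundant were Nr5a2, at 32.5 to 50.8 RPM in cKO and 27.4 to 28.3 RPM in WT libraries without overlap (limma adjusted p = 0.281), and Cyp19a1, at 19.5 to 30.6 and 17.1 to 27.3 RPM. Inha, also a ligand subunit, measured 7.03, 11.4, 13.2 and 0.583 RPM in cKO and 0.810, 4.32 and 0 RPM in WT libraries (log2 difference 1.7, SE 0.76, limma adjusted p = 0.225), and passed the threshold without cKO library 4. Fshr and Gja1 reached 5.15 and 5.14 RPM. Of the 4 cumulus expansion genes, 2 were in the table, with sums up to 1.81 RPM, and of the 6 theca and blood cell markers 4 were, with sums up to 1.30 RPM. The part of these markers, and of the reads outside transcripts, in the differences below was not tested. On the second principal component of all genes, cKO library 4 (-44.7) and WT library 3 (-64.3) stood apart from the other libraries, which lay between -6.52 and 52.6.

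The promoters of 4 of the 7 genes were in the RefSeq set for GRCm38.p6, Bmp15, Bmp6, Oosp1 and Oosp2. Each window runs from 250 bases before the RefSeq start site to 50 bases after it. The sequences of Bmp15, Oosp1 and Oosp2 are shown 5′ to 3′ on the strand of the gene, because these are the abundant members for which a window was held. Capitals mark matches on either strand to TAATTA or TAATTG (the element bound by NOBOX), CANNTG (the E-box bound by FIGLA and SOHLH1 with their partners), TCAAGGTCA (NR6A1) and TATAAA (the TATA box). No match overlapped another.
Bmp15 (chrX:6320675-6320974, minus strand): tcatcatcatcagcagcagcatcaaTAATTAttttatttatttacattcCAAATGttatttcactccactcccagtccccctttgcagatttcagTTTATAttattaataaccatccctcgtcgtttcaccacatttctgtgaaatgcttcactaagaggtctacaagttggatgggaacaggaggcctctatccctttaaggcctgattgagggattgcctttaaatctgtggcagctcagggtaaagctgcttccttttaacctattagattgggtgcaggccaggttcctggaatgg
Oosp1 (chr19:11691002-11691301, minus strand): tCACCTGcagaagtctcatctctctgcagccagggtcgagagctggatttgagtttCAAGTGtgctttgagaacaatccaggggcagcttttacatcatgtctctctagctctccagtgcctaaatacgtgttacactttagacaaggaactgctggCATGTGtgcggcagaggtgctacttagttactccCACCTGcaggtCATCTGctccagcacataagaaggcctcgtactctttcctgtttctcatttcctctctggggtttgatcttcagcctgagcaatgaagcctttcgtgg
Oosp2 (chr19:11660510-11660809, minus strand): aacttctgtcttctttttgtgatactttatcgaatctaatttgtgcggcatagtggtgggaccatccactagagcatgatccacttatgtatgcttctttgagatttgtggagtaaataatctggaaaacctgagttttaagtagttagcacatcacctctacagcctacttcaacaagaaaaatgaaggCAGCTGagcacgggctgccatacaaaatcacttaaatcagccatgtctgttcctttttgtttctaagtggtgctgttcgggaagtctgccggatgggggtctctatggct

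The Bmp15 promoter held TAATTA, its first base 225 bases before the start site, an E-box (CAAATG) at 201 bases and the reverse of TATAAA at 155 bases. Of the 32851 promoters in the set, 5.29% held TAATTA, 72.3% an E-box and 13.6% TATAAA. The Oosp1 promoter held 5 E-boxes, at 249, 194, 93, 59 and 48 bases before the start site, a number reached or passed in 2.10% of all promoters. The Oosp2 promoter held 1 E-box (CAGCTG) 60 bases before the start site, and the Bmp6 promoter held 2. TAATTG, present in 8.0% of all promoters, and TCAAGGTCA, present in 0.423%, were in none of the 4. Bmp15 had 2 CG dinucleotides in its window and Oosp1 and Oosp2 had 5 each, against a median of 7 over all promoters and 27 in the Bmp6 window. The deposited transcripts began farther upstream than RefSeq, by 2579 bases for Bmp15, 585 for Oosp1 and 306 for Oosp2.

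Per kilobase of exon (GENCODE M21), the members took the same order in both genotypes. Reads were counted over the deposited transcripts, so the lengths are approximate. Overlap over union with the GENCODE span was 0.47 for Bmp15 and 0.67 for Gdf9. In WT oocytes the level of Oosp1 was 2344 ± 587 RPM per kb, that of Gdf9 1835 ± 541, that of Oosp2 1554 ± 720, that of Oosp3 1548 ± 569 and that of Bmp15 564 ± 145 (SD, n = 3). In cKO oocytes the level of Oosp1 was 1427 ± 432 RPM per kb, that of Gdf9 1230.45 ± 366, that of Oosp2 729.8 ± 298, that of Oosp3 524 ± 193 and that of Bmp15 376 ± 129 (SD, n = 4). Among these 5 genes, neighbours in the order had overlapping ranges of mean ± SD, apart from Oosp3 and Bmp15 in WT oocytes. Bmp6 by span was far below them, at 13.3 ± 2.27 RPM per kb in WT and 16.9 ± 3.13 in cKO oocytes, and Fgf8 was lower still, at 0.526 ± 0.161 in WT and 0.162 ± 0.119 in cKO oocytes. By RPM alone, Gdf9 ranked 12 among all transcripts in WT and 17 in cKO oocytes.

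Oosp3 was the only one of the 5 members tested that passed the threshold (limma, Benjamini-Hochberg adjusted p under 0.05 over all transcripts and a change over 2-fold), and it was lower in cKO oocytes. The estimates of Gdf9, Bmp15, Oosp1 and Oosp2 were also below 0 but did not pass. Among the 18179 transcripts tested, 5.71% passed, 3.76% higher and 1.95% lower in cKO oocytes. Estimates below 0 were found for 7208 of the 18179. The median log2 difference of the 5 members was -0.73, that of the 9 oocyte markers tested was -0.35, and that of all transcripts was 0.12.

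Gdf9 (11:53433268-53437904, plus strand, GRCm38) measured 3118, 3044, 2306 and 1528 RPM in cKO libraries 1 to 4 and 4963, 3355 and 2863 RPM in WT libraries 1 to 3. The highest WT library stood above all others, and 2 of the 4 cKO libraries lay within the WT range. The mean was 2499 ± 744 RPM in cKO and 3727 ± 1098 RPM in WT oocytes (SD, n = 4 and n = 3). The log2 difference of log2(RPM + 1), cKO minus WT, was -0.59 (SE 0.32, 95% interval -1.30 to 0.11) with an adjusted p of 0.317 in limma. With quantile normalisation it was -0.12. As each library was left out, the log2 difference ran from -0.76 (without WT library 3) to -0.37 (without WT library 1).

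Bmp15 (X:6309243-6323303, minus strand), the X-linked partner of Gdf9, measured 1209, 1652, 1041 and 701 RPM in the cKO libraries and 2068, 1888 and 1226 RPM in the WT libraries. The libraries of the 2 genotypes overlapped, since cKO library 2 lay above WT library 3. Means were 1151 ± 395 RPM (SD, n = 4) and 1727 ± 443 RPM (SD, n = 3). The log2 difference was -0.62 (SE 0.32, 95% interval -1.32 to 0.08, limma adjusted p = 0.293). It ran from -0.85 (without WT library 3) to -0.40 (without cKO library 4) as each library was left out.

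Bmp6 by span (13:38340652-38500371, plus strand) measured 60.2, 59.6, 59.7 and 84.2 RPM in cKO and 43.0, 52.0 and 60.7 RPM in WT libraries. Of the cKO libraries 3 lay just below WT library 3, while cKO library 4 was the highest of all. The log2 difference was 0.34 (SE 0.22, 95% interval -0.16 to 0.83, limma adjusted p = 0.433). The transcript listed under the name Bmp6 on the opposite strand (13:38500273-38529093) overlaps its end and measured 102 ± 13.8 RPM in cKO and 89.8 ± 8.14 RPM in WT oocytes (log2 difference 0.18, adjusted p = 0.672). The sources used here do not say if counting was stranded, so reads from their shared end cannot be assigned.

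Fgf8 (19:45736859-45742212, minus strand) had 2, 4, 4 and 0 reads in the cKO libraries and 11, 10 and 5 reads in the WT libraries. These reads amount to 0.198, 0.329, 0.348 and 0 RPM in cKO and 0.891, 0.771 and 0.468 RPM in WT oocytes. For the 0 reads of cKO library 4 the exact Poisson 95% interval reached up to 0.43 RPM. All WT libraries lay above all cKO libraries, by as little as 1 read. Summed, the 10 cKO reads gave 0.236 RPM (exact Poisson 95% interval 0.113 to 0.435) and the 26 WT reads gave 0.722 RPM (0.472 to 1.06), intervals that cover counting error only. Without a filter on low values, limma gave a log2 difference of -0.49 (SE 0.14) with an adjusted p of 0.189.

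**Figure D1:**
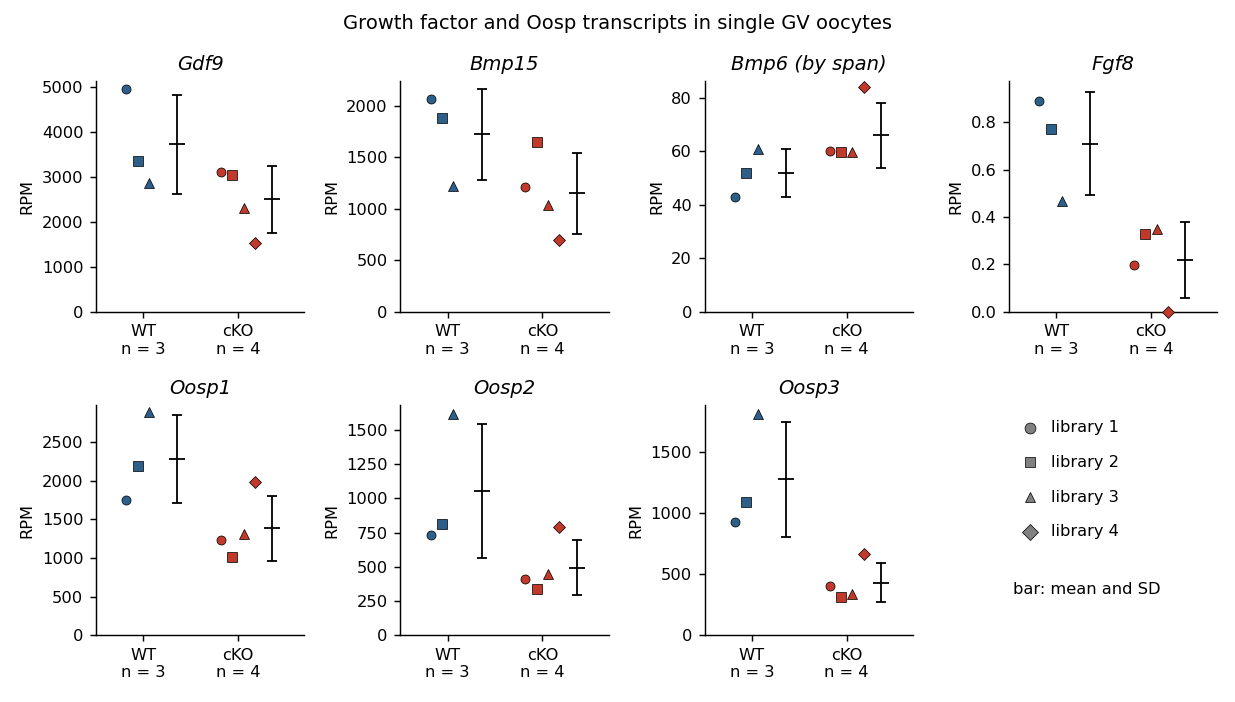
RPM (vertical axes, from 0) of each member in the 3 WT oocytes (blue) and the 4 cKO oocytes (red), with marker shapes for the library number and the mean and SD beside them. Oosp3 libraries separate by genotype, at 315 to 663 RPM in cKO and 926 to 1807 RPM in WT oocytes. In each genotype the oocyte lowest for Gdf9 and Bmp15 is the highest for Oosp1, Oosp2 and Oosp3. These oocytes, cKO library 4 and WT library 3, also stood apart on the second principal component of all genes.

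The Oosp genes occupied 68719 bases of chromosome 19, with Oosp2 and Oosp1 on the minus strand and Oosp3 on the plus strand. Oosp1 (19:11667460-11691636) measured 1239, 1013, 1309.6 and 1988 RPM in the cKO libraries and 1757, 2190.3 and 2887 RPM in the WT libraries. Only cKO library 4 reached into the WT range. The log2 difference was -0.73 (SE 0.29, 95% interval -1.36 to -0.10), and the adjusted p in limma was 0.165.

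Oosp2 (19:11643156-11660865) measured 408, 336, 445 and 790.4 RPM in the cKO libraries and 734, 812 and 1616 RPM in the WT libraries. Again cKO library 4 alone lay above a WT library, and WT library 3 was higher than all others. The difference was -1.07 on the log2 scale, or 2.11-fold lower in cKO oocytes (SE 0.35, 95% interval -1.85 to -0.30), and did not pass the threshold (limma adjusted p = 0.101). It passed without cKO library 4, at -1.33 with an adjusted p of 0.0188, with the replicate number as a block, which also leaves out that library, at -1.33 with an adjusted p of 0.00537, and with library quality weights, at -1.04 with an adjusted p of 0.0209. The difference was under 2-fold without WT library 3, at -0.72 with a limma adjusted p of 0.248. The same held without cKO library 2, at -0.91 with an adjusted p of 0.197.

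Oosp3 (19:11696839-11711874) measured 406, 315, 341 and 663 RPM in the cKO libraries and 926, 1089 and 1807 RPM in the WT libraries. Every cKO library lay below every WT library, as in 7.14% of all transcripts tested, and the libraries of 20.3% of transcripts did not overlap in either direction. The mean was 431 ± 159 RPM in cKO (SD, n = 4) and 1274 ± 469 RPM in WT oocytes (SD, n = 3). Oosp3 RNA was thus 2.96-fold lower in cKO oocytes, a log2 difference of -1.56 (SE 0.32, 95% interval -2.27 to -0.86, limma adjusted p = 0.0180).

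The Oosp3 call depended on single oocytes. Without cKO library 1, cKO library 3 or WT library 2 the adjusted p was 0.0543, 0.0648 and 0.0709, with log2 differences of -1.56, -1.47 and -1.65. In those fits the transcripts past the threshold over the whole table fell from 1038 to 613, 560 and 280. Without any filter the adjusted p of Oosp3 was 0.125.

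**Figure D2:**
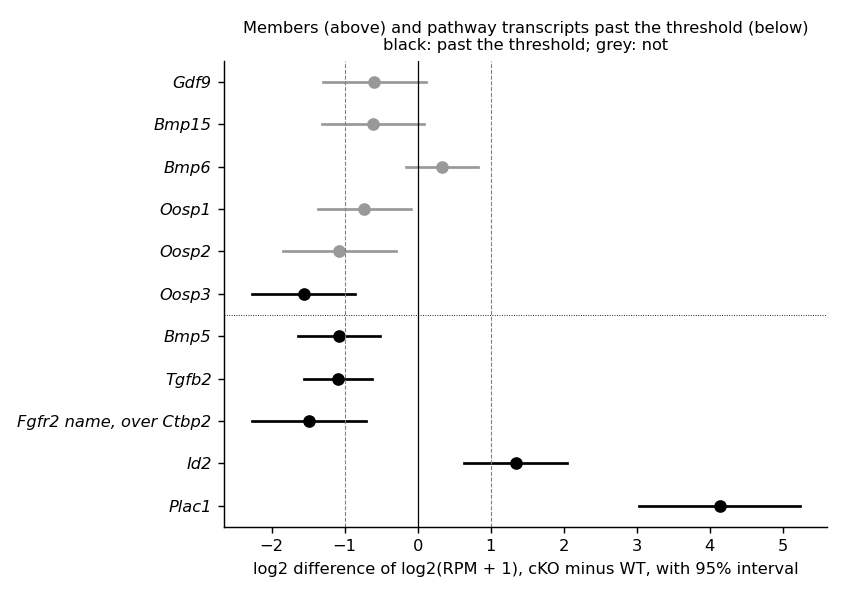
Log2 difference of log2(RPM + 1), cKO minus WT, with its 95% interval (horizontal axis) for the members tested (above the dotted line) and the related transcripts past the threshold (below it), of which the one named Fgfr2 lies over Ctbp2. Dashed lines mark 2-fold, and of the 6 members shown Oosp3 alone is black, at -1.56.

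Without cKO library 4 and WT library 3, the oocytes apart on the second component, the difference was -1.51 for Oosp3 (limma adjusted p = 2.32e-04) and -0.97 for Oosp2 (adjusted p = 0.00400). In that comparison Oosp1 was at -0.73 (adjusted p = 0.0248), Bmp15 at -0.63 (adjusted p = 0.0683) and Gdf9 at -0.54 (adjusted p = 0.130). Oosp3 alone passed both parts of the threshold there, the others being under 2-fold. Another scaling moved the median of all transcripts by more than 0.1, from 0.12 to -0.03 with the median gene of each library set to 0, and the calls from 683 higher and 355 lower to 458 higher and 531 lower. Centred in this way, the log2 differences were -1.72 for Oosp3, -1.23 for Oosp2, -0.89 for Oosp1, -0.77 for Bmp15 and -0.75 for Gdf9. Quantile normalisation, which brought the median of all transcripts to 0.0065, gave smaller ones of -1.45 for Oosp3, -0.99 for Oosp2, -0.40 for Oosp1, -0.45 for Bmp15 and -0.12 for Gdf9, with Oosp3 alone past the threshold.

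**Figure D3:**
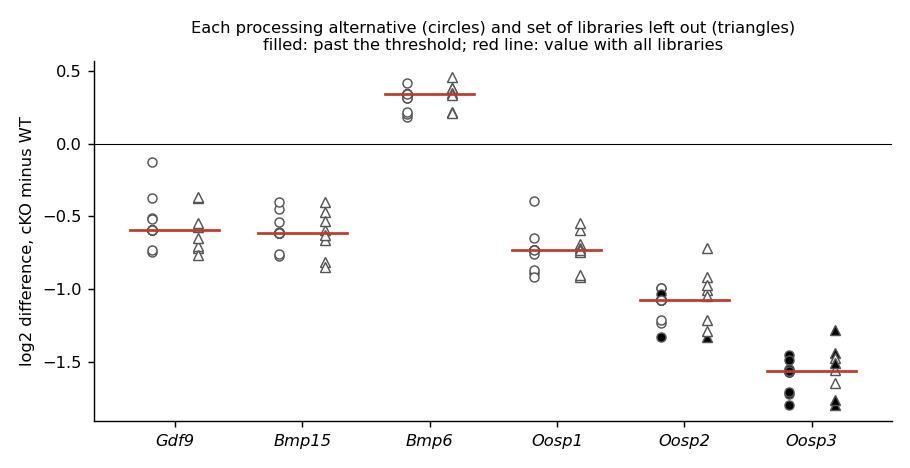
Log2 difference, cKO minus WT (vertical axis), of 6 members under each processing alternative (circles) and with libraries left out (triangles), with the value from all libraries as a red line. Filled symbols passed the threshold, and Oosp3 did so in 19 of 23 alternatives, with values between -1.79 and -1.28.

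Among oocytes of the same genotype the extremes of Gdf9 and Bmp15 differed from those of the Oosp genes. In WT oocytes library 1 was highest and library 3 lowest for Gdf9 and Bmp15, and library 3 was highest and library 1 lowest for Oosp1, Oosp2 and Oosp3. In cKO oocytes library 4 was lowest for Gdf9 and Bmp15 and highest for the 3 Oosp genes, whereas library 2 was lowest for all 3 Oosp genes and highest for Bmp15. Bmp6 by span followed the library order of Oosp3 in both genotypes, although its values in cKO libraries 1 to 3, at 59.6 to 60.2 RPM, were too close to order. Gdf9 and Bmp15 together amounted to 2229 RPM in cKO library 4 and to between 3347 and 4696 RPM in the other cKO libraries. The Oosp genes together amounted to 3441 RPM in cKO library 4 and to between 1664 and 2096 RPM in the other cKO libraries. The libraries cKO 4 and WT 3 are those that stood apart on the second principal component of all genes. Other oocyte genes split in the same way. Among the oocyte markers, Zp1, Zp2, Nlrp5 and Kit were lowest in both of these libraries. Zp3, Dppa3, Npm2 and H1foo were highest in both, and Mos was at neither extreme. The split is thus not particular to the members, and these orders are descriptive.

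Ratios of reads within a library do not depend on its scaling, and 4 were compared between the genotypes by exact two-sided permutation tests over 35 splits, the smallest p being 0.0286. The ratio of Gdf9 to Bmp15 was 2.58, 1.84, 2.21 and 2.18 in cKO and 2.40, 1.78 and 2.34 in WT libraries. These values interleave, with means of 2.20 ± 0.301 (SD, n = 4) and 2.17 ± 0.343 (SD, n = 3). Their log2 difference was 0.02 (exact p = 0.857, adjusted over the 4 ratios 0.857) and ran from -0.11 to 0.11 as each library was left out.

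The ratio of Oosp1 to Oosp3 was 3.05, 3.22, 3.84 and 3.0 in cKO libraries and 1.90, 2.01 and 1.60 in WT libraries. Every cKO library lay above every WT library, so the reads of Oosp3 per read of its neighbour Oosp1 were fewer in each cKO oocyte. The ratio was 1.79-fold higher in cKO oocytes, a log2 difference of 0.84 with the smallest p the design allows (exact p = 0.0286), and it did not pass after adjustment over the 4 ratios (0.114). Leaving out each library gave values from 0.74 to 0.91. Oosp3 made up 19.8%, 18.9%, 16.3% and 19.3% of the reads of the 3 Oosp genes in cKO libraries and 27.1%, 26.6% and 28.6% in WT libraries.

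The ratio of Oosp1 to Oosp2 was 3.04, 3.02, 2.94 and 2.52 in cKO and 2.39, 2.70 and 1.79 in WT libraries, a log2 difference of 0.34 (exact permutation p = 0.0857, adjusted 0.171). Of the cKO libraries 3 lay above every WT library. The ratio of Gdf9 to Oosp1 ranged widely within both genotypes, from 0.768 to 3.0 in cKO and from 0.992 to 2.83 in WT libraries, with a log2 difference of 0.14 (exact permutation p = 0.83, adjusted 0.857).

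**Figure D4:**
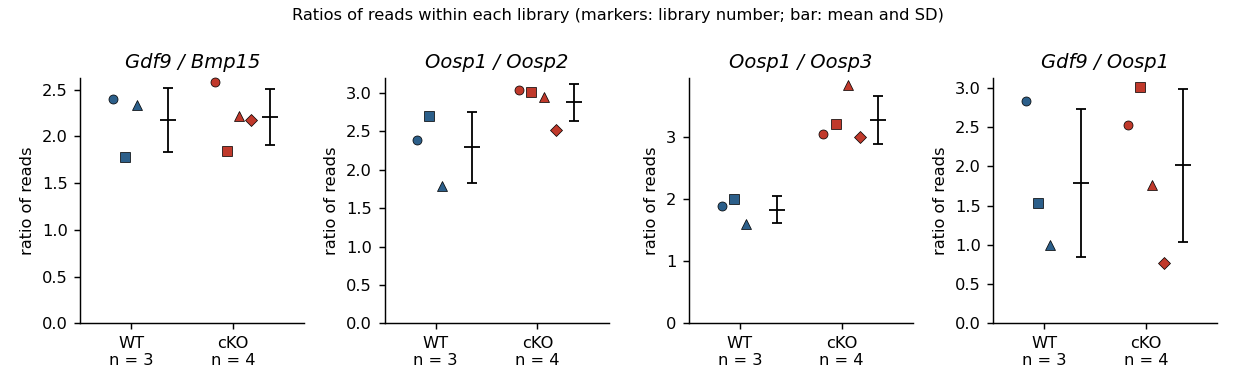
Ratios of reads between pairs of members within each library (vertical axes, from 0), for WT (blue) and cKO oocytes (red), with the mean and SD beside the points. The Oosp1 to Oosp3 ratio lies at 3.0 to 3.84 in cKO and 1.60 to 2.01 in WT libraries, and the Gdf9 to Bmp15 ratio interleaves.

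Within 100 kb of the Oosp genes lay 8 other transcripts, of which 4 were tested and none passed the threshold. The nearest, Ms4a2 (19:11615521-11641784, minus strand), a gene of the membrane-spanning 4A family, was at 0.0871 to 1.05 RPM in cKO and 1.30 to 3.16 RPM in WT libraries (log2 difference -0.90, SE 0.34, limma adjusted p = 0.142). At this low level its difference depended on the pseudocount, from -0.32 with 5 RPM to -2.16 for the values as deposited, and it passed with library quality weights (-1.10, adjusted p = 0.0417). Ms4a6d, of the same family, had an estimate of the opposite sign, with 54.0 to 65.9 RPM in cKO and 24.3 to 39.7 RPM in WT libraries (log2 difference 0.82, SE 0.23, adjusted p = 0.0667). On the other side, Mrpl16, a protein of the mitochondrial ribosome, measured 62.5 ± 10.1 RPM in cKO and 54.8 ± 1.84 RPM in WT oocytes (log2 difference 0.17, adjusted p = 0.705). Stx3, a syntaxin, measured 2.90 ± 0.757 RPM in cKO and 2.76 ± 1.47 RPM in WT oocytes (log2 difference 0.10, adjusted p = 0.905). The transcripts under the filter were Gif and its antisense transcript and a pair without a name, none above 1.31 RPM in any library.

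**Figure D5:**
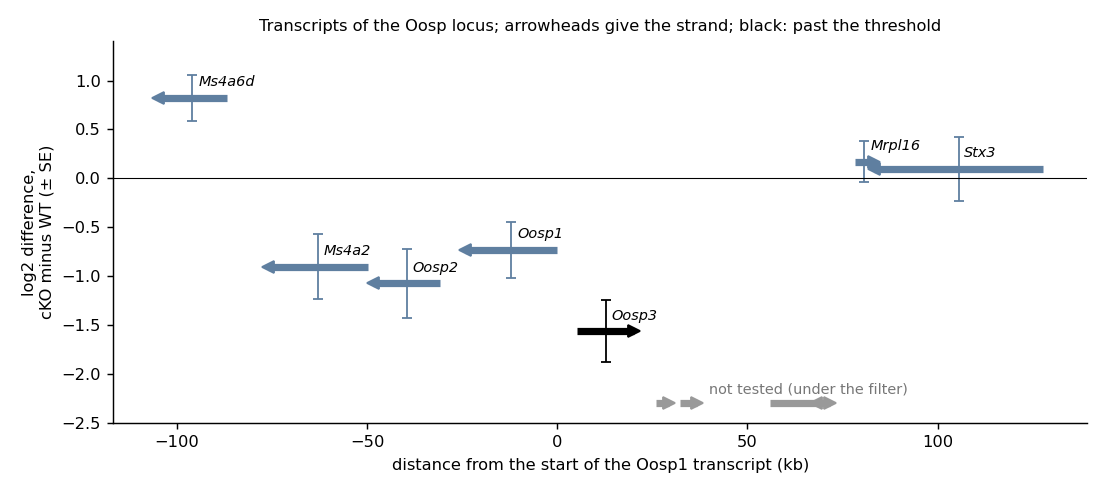
Transcripts around the Oosp genes by their distance in kb from the start of Oosp1 (horizontal axis) and their log2 difference, cKO minus WT, with SE (vertical axis); arrowheads give the strand and grey transcripts were not tested. Oosp1, Oosp2 and Ms4a2 lie between -0.73 and -1.07, Oosp3 at -1.56, and Ms4a6d at 0.82.

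A pair of transcripts lay just upstream of the main Gdf9 transcript, inside the annotated gene. The one on the Gdf9 strand (11:53431314-53433047) measured 4.26, 4.53, 6.44 and 5.13 RPM in cKO and 3.81, 2.78 and 2.62 RPM in WT libraries. The one on the opposite strand (11:53431344-53432935) measured 3.27, 3.21, 5.31 and 4.78 RPM in cKO and 1.86, 1.7 and 1.59 RPM in WT libraries. In both, on 17 to 74 reads per library, every cKO library was above every WT library. The libraries of 20.3% of all transcripts tested did not overlap in either direction. Neither passed the threshold (log2 differences 0.58 and 0.90, SE 0.27 and 0.28, limma adjusted p = 0.249 and 0.0871). As their spans coincide, reads from the strands may not be told apart, and the 2 may not be separate observations.

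The transcripts with patterns most like the members over the 7 libraries were found by the root mean square distance between log2(RPM + 1) values centred on each gene's mean, as a description. For Gdf9 they were Stx17 (distance 0.08) and Eif2d (0.10), and for Bmp15 they were Map1b (0.06) and Rnf170 (0.08). Gdf9 and Bmp15 were 0.18 apart. Among 6720 candidates Bmp15 ranked 46 in nearness to Gdf9, and Gdf9 ranked 64 in nearness to Bmp15. For Oosp1 the nearest were Gm30725 and Gm36241 (both 0.11), for Oosp2 they were Ermard (0.10) and Omt2b (0.11), and for Oosp3 they were Gm48050 (0.15) and Fkbp5 (0.18). Oosp1 lay 0.25 from Oosp2, Oosp3 lay 0.28 from Oosp2 and 0.44 from Oosp1, and the distances between Gdf9 or Bmp15 and the Oosp genes ran from 0.70 to 0.92. In nearness to Oosp1, Oosp2 ranked 148 and Oosp3 ranked 942. In nearness to Oosp2, Oosp1 ranked 34 and Oosp3 ranked 48, and in nearness to Oosp3, Oosp2 ranked 18 and Oosp1 ranked 82. Many other genes thus lay closer to a member than the other members did. Bmp6 was not compared in this way.

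Related genes were followed in 9 lists by role: ligands, receptors, SMAD proteins, convertases, antagonists, response genes and the transcription factors of these promoters. Of 96 genes 79 had a transcript and 53 were tested, of which 3 were lower and 1 was higher in cKO oocytes. Among the 3 is the transcript listed as Fgfr2, which lies over Ctbp2. The 4 are 7.55% of those tested, near the 5.71% of all transcripts. The median log2 difference of the 53 genes tested was 0.00.

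Among the other TGF-beta family ligands, 2 of 5 tested fell and none rose. Tgfb2, a ligand that binds TGF-beta receptors, measured 359.7, 362, 274 and 312 RPM in cKO and 731, 772 and 590.3 RPM in WT libraries (log2 difference -1.09, SE 0.21, limma adjusted p = 0.0145). Bmp5, a close relative of Bmp6, measured 54.5, 69.1, 50.6 and 40.7 RPM in cKO and 136, 125 and 84.0 RPM in WT libraries (log2 difference -1.08, SE 0.25, adjusted p = 0.0320). For both genes all cKO libraries lay below the WT libraries. Neither call held without cKO library 3, WT library 1 or WT library 2, and that of Bmp5 was also lost without cKO library 1 or cKO library 4. The Tgfb2 difference was also under 2-fold with quantile normalisation (-0.97), and Bmp5 did not pass without a filter (adjusted p = 0.115) or with the replicate block (-0.96). The Tgfb2 differences without these libraries were -1.01, -1.05 and -1.01, with adjusted p between 0.0536 and 0.0856, and the Bmp5 differences ranged from -1.10 to -0.94. Tgfb3 by span (listed as Ttll5), named after its values were seen, did not pass with all libraries (log2 difference -0.92, SE 0.26, limma adjusted p = 0.0667) although every cKO library lay below every WT library, and it passed with centring on the median gene, with median-of-ratios scaling and without cKO library 4 and WT library 3. Inha, described above, passed as higher without cKO library 4, with the replicate block and without cKO library 4 and WT library 3.

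None of 9 TGF-beta family receptors passed. Bmpr1b, a type I receptor that GDF and BMP ligands use, was the most abundant, at 224 ± 20.3 RPM in cKO and 173 ± 9.40 RPM in WT oocytes (log2 difference 0.37, SE 0.19, limma adjusted p = 0.291), and the libraries did not overlap. Bmpr2, the type II receptor of GDF9 and BMP15, was at 47.3 ± 16.2 RPM in cKO and 58.7 ± 13.2 RPM in WT oocytes (adjusted p = 0.560). None of 10 SMAD proteins and regulators passed, the most abundant being the co-repressor Ski (97.8 ± 7.91 and 121 ± 10.7 RPM, adjusted p = 0.413) and the signal transducer Smad2 (72.0 ± 22.7 and 66.2 ± 17.7 RPM, adjusted p = 0.901). Smad6, Smad7 and Sohlh1 had no reads in any library.

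None of 4 proprotein convertases, which cleave the precursors of these ligands, passed the threshold. Furin was at 28.4 ± 9.95 RPM in cKO and 28.1 ± 7.80 RPM in WT oocytes (limma adjusted p = 0.997), and Pcsk6 by span was at 5.71 ± 2.32 and 6.84 ± 5.62 RPM (adjusted p = 0.958). None of 4 extracellular antagonists and binding proteins passed, and the most abundant, Twsg1, a binder of BMPs, averaged 3.34 ± 1.94 RPM in cKO and 2.63 ± 1.20 RPM in WT oocytes (adjusted p = 0.837). Fstl3, a binder of activin, averaged 1.26 ± 0.972 and 2.40 ± 0.801 RPM (adjusted p = 0.347).

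None of 4 other FGF ligands passed. The most abundant were Fgf9, at 18.1 ± 7.87 RPM in cKO and 11.1 ± 6.55 RPM in WT oocytes (limma adjusted p = 0.392), and Fgf10, at 7.72 ± 3.07 and 8.89 ± 3.59 RPM (adjusted p = 0.839). The table gives the name Fgfr2 to 24 transcripts on the strand of that gene, and the most abundant of them (7:132987584-133123367), which the rule takes, lies outside the receptor's RefSeq span and covers Ctbp2, a transcriptional co-repressor, almost whole (overlap over union 0.993 with Ctbp2 in GENCODE). It measured 47.2, 66.2, 38.05 and 27.3 RPM in cKO and 193, 121 and 76.2 RPM in WT libraries (log2 difference -1.49, SE 0.36, limma adjusted p = 0.0352), and all cKO libraries lay below all WT libraries. Without cKO library 1, cKO library 3, WT library 1 or WT library 2 it did not pass (adjusted p = 0.0735, 0.0997, 0.144 and 0.129). Nor did it pass without a filter or with reads summed over the transcripts of a gene name. Its difference ran from -1.82 to -0.30 over all alternatives. The transcript over the receptor itself (7:130162525-130262453) measured 11.8, 13.4, 10.0 and 16.3 RPM in cKO and 13.2, 16.7 and 16.6 RPM in WT libraries and did not pass (log2 difference -0.26, SE 0.25, adjusted p = 0.611). Fgfr1 measured 6.76 ± 1.10 RPM in cKO and 5.32 ± 1.43 RPM in WT oocytes (adjusted p = 0.580).

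Of 8 response genes 1 rose and none fell. Id2, an inhibitor of basic helix-loop-helix factors induced by BMPs, measured 29.6, 21.2, 49.3 and 41.9 RPM in cKO and 11.7, 10.0 and 17.5 RPM in WT libraries (log2 difference 1.34, SE 0.32, limma adjusted p = 0.0344). The lowest cKO library lay above the highest WT library. The call was lost without cKO library 1 or 3 or WT library 1 or 2 (adjusted p = 0.0680, 0.0985, 0.122 and 0.156), without a filter (adjusted p = 0.151), and with centring on the median gene, quantile normalisation or median-of-ratios scaling (1.19, 1.26 and 1.21, adjusted p = 0.0552, 0.0584 and 0.0513). Id3, a relative of Id2 named after its values were seen, measured 24.2, 57.5, 70.2 and 2.80 RPM in cKO and 19.7, 9.64 and 4.77 RPM in WT libraries. It did not pass with all libraries (log2 difference 1.21, SE 0.86, limma adjusted p = 0.471) and passed as higher without cKO library 4, with the replicate block and without cKO library 4 and WT library 3. Spry4 and Spry1, inhibitors of FGF signalling, were lower on average but did not pass, Spry4 at 216 ± 81.5 RPM in cKO and 366 ± 113 RPM in WT oocytes (adjusted p = 0.205) and Spry1 by span at 27.6 ± 5.59 and 40.04 ± 12.9 RPM (adjusted p = 0.322).

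None of 7 transcription factors listed for these promoters passed. Nobox, an activator of Gdf9 and Bmp15, measured 884, 735, 598 and 249.9 RPM in cKO and 849.6, 614 and 436 RPM in WT libraries. Like Gdf9 and Bmp15, it was lowest in cKO library 4 and WT library 3, and its log2 difference was -0.13 (SE 0.41, limma adjusted p = 0.90), which turned to 0.26 without cKO library 4. The transcript listed as Figla (6:86016157-86124404) starts at that gene and runs on over Add2 (overlap over union 0.884 with Add2), so the level of Figla itself was not read from it. Taf4b, a subunit of the TFIID complex found in oocytes and named after its values were seen, was at 19.3 to 28.1 RPM in cKO and 7.11 to 13.4 RPM in WT libraries, without overlap. It did not pass with all libraries (log2 difference 1.03, SE 0.28, limma adjusted p = 0.0578) and passed as higher with scaling by the reads within transcripts, with the replicate block and without cKO library 4.

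Plac1 (X:53069996-53114530, minus strand), the relative of the Oosp genes known from the placenta, was higher in cKO oocytes. It measured 72.6, 58.9, 55.4 and 64.5 RPM in cKO and 0.810, 1.47 and 9.54 RPM in WT libraries. Every cKO library stood far above every WT library, and WT library 3 was the highest of the WT oocytes, as for Oosp1, Oosp2 and Oosp3. The log2 difference was 4.14 (SE 0.50, limma adjusted p = 0.00279), opposite in sign to those of the 3 Oosp genes, and passed the threshold in all 23 alternatives, at 3.05 to 4.91.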

How the data were processed

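Single GV oocytes, 4 Setd1b cKO and 3 Setd1b WT, were amplified with the SMARTer kit and sequenced as single reads. The authors trimmed reads, mapped them to GRCm38 with Hisat, discarded low mapping quality and counted them with SeqMonk over merged oocyte transcripts, so that reads shared by near-identical copies were removed. The deposited values are log2 RPM, with 0.9 read in place of 0. RPM divided by the step of a single read came out whole (tolerance 0.1 read) for 100% of values. Tools listed in the submitters' processing notes were bcl2fastq 1.8.4 and featureCounts 1.4.4.

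Values were taken as log2(RPM + 1), tested transcripts reached 1 RPM in 3 libraries or more, and genotypes were compared with limma 3.58.1 (eBayes with trend, R 4.3.3) over the whole table. The threshold was a Benjamini-Hochberg adjusted p under 0.05 and over 2-fold. A log2(RPM + 1) difference understates changes of low transcripts. Genes absent from the table's names were matched to GENCODE M21 by span (overlap over union at least 0.5). Ratios used exact permutation tests in Python 3.11.15. Named genes were the members, the related genes past the threshold, the 2 most abundant of each related gene list, transcripts within 100 kb of the Oosp genes or overlapping a member, Plac1, Setd1b, and the 2 nearest patterns (mean of at least 8 RPM). Cell markers, Tgfb3, Id3, Taf4b, Inha and genes without reads were named outside this rule, after their values were seen. Of 111 genes looked up with a transcript, 3 (Eng, Fgfr2, Figla) had one that GENCODE places over another gene. Members and lists were chosen with earlier results of these data known. The fits were tested on simulated data.

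Alternatives were pseudocounts of 0.1 and 5 RPM, values as deposited, no filter or a mean of at least 4 RPM, 4 other scalings, voom on recovered reads, other variance settings and weights, a replicate block, summed rows and each library left out.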

Additional observations from a re-analysis of the deposited data

Results flagged for a closer look

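Of 36 values examined in the 4 cKO libraries, 1 was set apart by the gap of a single library. Bmp6 by span measured 84.2 RPM in cKO library 4 against 59.6 to 60.2 RPM in the other 3 cKO libraries, a gap of 0.978 of the whole range, above Dixon's 95% critical value. Chance gives such a gap in about 1 of 20 groups. Without that library the log2 difference of Bmp6 was 0.22 (limma adjusted p = 0.586).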

How the results depend on the processing

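The number of members past the threshold was 1 and became 0 without a filter on low values, where more transcripts were tested, and 2 with library quality weights and with a replicate block, Oosp2 being the addition. The block leaves out cKO library 4, which has no WT library of its number. It ran from 0 to 2 as each library was left out. The number of related genes past the threshold was 4 and became 1 without a filter, 2 with quantile normalisation and 7 without cKO library 4 and WT library 3, an alternative added after the data had been seen. It ran from 0 to 6 as each library was left out, with 0 without cKO library 3, WT library 1 or WT library 2. The cause was not tested. In the other alternatives the member count stayed at 1 and the related gene count between 3 and 6. The numbers in the titles gave correlations of 0.19, 0.29 and -0.13 between equal numbers, so they were not taken as pairs. With the replicate block the counts were 2 members and 6 related genes, with the same genes and log2 differences as without cKO library 4, and the ratios differed by 0.03 (Gdf9 to Bmp15), 0.41 (Oosp1 to Oosp2), 0.88 (Oosp1 to Oosp3) and 0.54 (Gdf9 to Oosp1) on the log2 scale. Not every library correlated best with its own number.

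Gdf9, Bmp15, Bmp6 by span, Oosp1, Oosp2, Oosp3, Bmp5, Tgfb2, Id2, Plac1 and the transcript listed as Fgfr2 kept their direction in the alternatives run. Among other genes the sign turned for some values near 0. As libraries were left out, the ratio of Gdf9 to Bmp15 ran from -0.11 to 0.11, that of Gdf9 to Oosp1 from -0.22 to 0.54, Fgf10 from -0.497 to 0.0639, Smad2 from -0.145 to 0.334, Furin from -0.24 to 0.159, Pcsk6 from -0.453 to 0.478, Twsg1 from -0.095 to 0.43, Nobox from -0.371 to 0.256 and Stx3 from -0.0871 to 0.401. With centring on the median gene Smad2 was -0.059 and Stx3 -0.057, and with median-of-ratios scaling Smad2 was -0.041 and Stx3 -0.0017. With quantile normalisation Twsg1 was -0.031 and Stx3 -0.13. Furin was 0.073 when scaled by reads within transcripts, 8.2e-04 with voom and 0.14 with the replicate block. Nobox was 0.015 with quality weights, 0.26 with the replicate block and 0.014 without cKO library 4 and WT library 3. With a library left out, the ratio tests cannot reach a p below 0.0667.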
